A study of Mus musculus with 23 samples.

Results

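Grb10 and Ddc are neighbouring imprinted genes on mouse chromosome 11, and their levels were followed here through 23 whole embryos that differed in Zfp57. The members were taken by symbol, which gave 2 of the 26183 genes in the count tables, and both were present in the tables of total counts and of allele-assigned counts. Each library was made from 1 whole E13.5 129/DBA hybrid embryo. The female embryos were 6 M+Z+, 3 M-Z+ and 4 M-Z-, and the male embryos were 4 M+Z+, 3 M-Z+ and 3 M-Z-. M+Z+ embryos (titled Zfp57-/+) had ZFP57 from the oocyte and from their own genome. M-Z+ embryos (also titled Zfp57-/+) lacked it in the oocyte and carried a functional paternal copy. M-Z- embryos (titled Zfp57-/-) lacked both. All embryos had a mother of the 129 strain and a Zfp57+/- father mainly of the DBA/2J background. The mothers of M-Z+ and M-Z- embryos were Zfp57-/-, and those of M+Z+ embryos carried a functional copy, so genotype cannot be told apart from the mother and litter between M+Z+ and the other embryos. Zfp57 was removed in the whole embryo, not in a chosen cell type. The question was whether loss of ZFP57 from the oocyte, the embryo or both altered this gene pair, and whether it did so alike in both sexes.

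An imprinted gene is read mainly from the copy inherited from 1 parent, and DNA methylation laid down in the egg or the sperm marks which copy that is. ZFP57 is a KRAB zinc finger protein that binds the methylated motif TGCCGC in such regions and keeps their methylation in the early embryo. Grb10 encodes an adaptor protein that binds the insulin and IGF1 receptors and restrains growth. It is known to be transcribed from the maternal copy in most tissues of the fetus and from the paternal copy in neurons, from separate promoters. Ddc encodes aromatic L-amino acid decarboxylase, the enzyme that makes dopamine from L-DOPA and serotonin from 5-hydroxytryptophan. It is active from both copies in many tissues, and a form with its own first exon is known to come from the paternal copy in the developing heart. The methylated region of the domain lies within Grb10 and carries its mark on the maternal copy.

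In the gene models of the count tables, which were on mm9 (NCBIM37), Grb10 lay at chr11:11830502-11937423 on the minus strand. It spanned 107 kb with 19 exons in 3 transcript models. Ddc lay on the same strand at chr11:11714104-11798147, spanned 84.0 kb and had 16 exons in 2 models. Its upstream start was 32.4 kb past the end of Grb10, so transcription of both genes runs in 1 direction with Grb10 first. No exon base of either gene was shared with another gene, although reads were counted for every gene that they overlapped. Each gene had 2 annotated starts. The 250 bases before each are shown, as the annotated promoters of the pair, with every CpG, the dinucleotide that carries DNA methylation, in capitals. They were read 5′ to 3′ from the NCBIM37 genome, and each was also found in the RefSeq promoter table of the later mouse assembly.
Grb10 upstream start, chr11:11937424-11937673, minus strand: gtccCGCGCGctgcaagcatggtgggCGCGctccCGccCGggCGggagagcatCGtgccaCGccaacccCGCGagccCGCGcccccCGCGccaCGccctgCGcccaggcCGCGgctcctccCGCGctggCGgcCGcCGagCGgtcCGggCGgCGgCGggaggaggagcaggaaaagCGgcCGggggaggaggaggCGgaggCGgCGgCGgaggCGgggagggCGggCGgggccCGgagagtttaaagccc
Grb10 downstream start, chr11:11927975-11928224, minus strand: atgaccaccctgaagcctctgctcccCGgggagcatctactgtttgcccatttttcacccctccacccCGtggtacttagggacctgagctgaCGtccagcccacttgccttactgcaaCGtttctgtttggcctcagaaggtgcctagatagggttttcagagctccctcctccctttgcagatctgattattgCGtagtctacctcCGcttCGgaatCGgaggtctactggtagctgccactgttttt
Ddc upstream start, chr11:11798148-11798397, minus strand: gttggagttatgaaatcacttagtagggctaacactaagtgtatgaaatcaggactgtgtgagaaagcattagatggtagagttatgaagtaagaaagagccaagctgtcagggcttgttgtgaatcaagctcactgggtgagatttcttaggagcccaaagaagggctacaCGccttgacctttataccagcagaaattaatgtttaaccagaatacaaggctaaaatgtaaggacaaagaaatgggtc
Ddc downstream start, chr11:11790412-11790661, minus strand: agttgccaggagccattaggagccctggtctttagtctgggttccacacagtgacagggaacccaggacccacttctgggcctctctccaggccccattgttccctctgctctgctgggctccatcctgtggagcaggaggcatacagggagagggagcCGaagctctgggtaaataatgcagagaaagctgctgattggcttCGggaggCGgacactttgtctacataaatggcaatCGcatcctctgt
The upstream Grb10 window held 40 CpGs at a GC content of 81.2%, and the downstream one held 8 at 54.0%. The Ddc windows held 1 CpG at 40.8% and 4 at 56.0%. The letters TGCCGC, or GCGGCA on the other strand, were in none of these 4 windows. Over the 25996 genes with such a window of 250 bases, 9.86% held the motif at least once. That the letters are not in a window says nothing of the factor itself.

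Across 233 kb, from 5 kb before Grb10 to 5 kb past Ddc, the motif occurred 27 times on both strands. Of these matches, 10 (37.0%) lay in stretches with windows rich in CpG, which made up 1.94% of the bases. The motif itself holds a CpG and is mostly G and C, so composition alone favours matches in such stretches. No share matched for composition was computed. Such stretches were joined windows of 200 bases with a GC content of at least 50% and an observed over expected CpG ratio of at least 0.6, at least 300 bases long, and 6 were found. Over its whole length, a joined stretch can be under 0.6, as 3 of the 6 were, at 0.489 to 0.594, among them both within Ddc. The longest, chr11:11936363-11938161, held the upstream Grb10 start and 5 matches. The next, chr11:11925414-11926726, lay inside Grb10, 10.7 to 12 kb downstream of that start. It held 143 CpGs in 1313 bases and 4 matches, which overlap an exon of the GENCODE annotation of the same build. These matches are shown with 12 bases to either side, the motif in capitals, because a motif in this form is what ZFP57 is known to read. The printed stretches of matches 1 and 2 overlap at their ends.
Match 1, chr11:11926238-11926267, minus strand: cgcgtgccggccTGCCGCgatcattcgtct
Match 2, chr11:11926216-11926245, minus strand: attcgtctctgaGCGGCAcggccctgtcgg
Match 3, chr11:11926111-11926140, minus strand: gttggcgcgtgtTGCCGCgtgttggcccgt
Match 4, chr11:11926071-11926100, minus strand: gtcagcgcatgtTGCCGCatgtcggtgcgt
Of the other 4 stretches, 1 held a single match, at a ratio of 0.534, and 3, among them both within Ddc, held none. A match is a description of letters. Neither DNA methylation nor binding of ZFP57 was measured in the files used here.

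**Figure D1:**
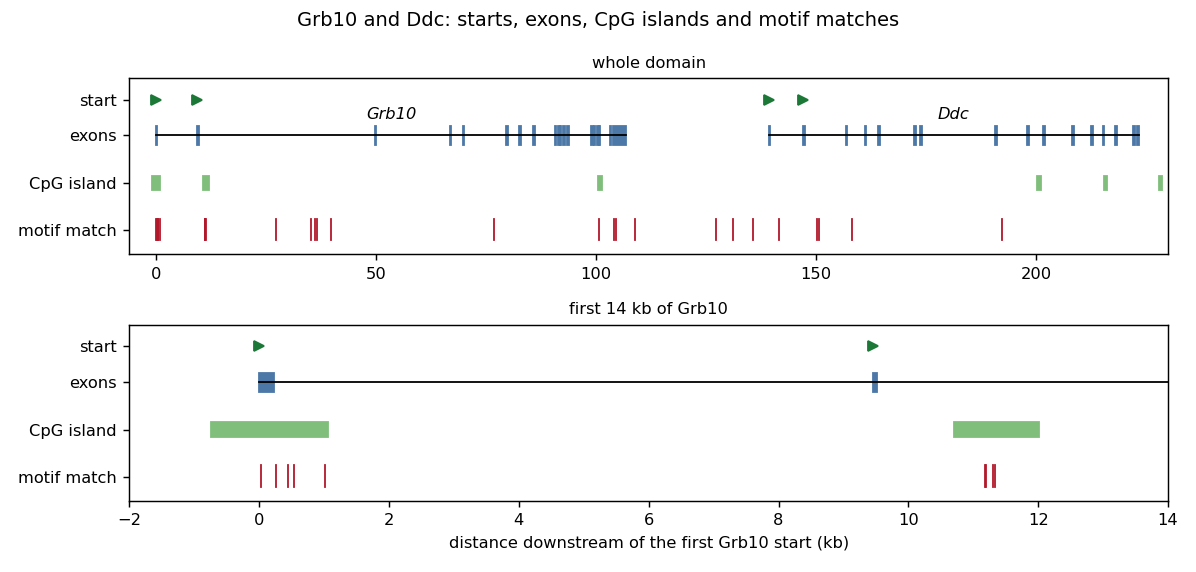
Map of Grb10 and Ddc by distance (kb) downstream of the upstream Grb10 start, with annotated starts, exons, CpG-rich stretches and matches to the ZFP57 motif in rows. Matches cluster at the upstream Grb10 start and 10.7 to 12 kb downstream of it, and the CpG-rich stretches within Ddc hold none. The motif itself holds a CpG, so composition alone favours matches in CpG-rich stretches.

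Libraries held 15.2 to 24.1 M counts each, with a median of 17.4 M. The targeted gene was checked first. Zfp57 stood at 52.7 to 99.1 CPM (counts per M of total counts) in female M+Z+ embryos, 67.0 to 78.6 in female M-Z+ and 31.9 to 34.0 in female M-Z-. In males it was 68.0 to 88.8, 66.6 to 74.0 and 25.5 to 35.3 CPM, respectively. All 7 M-Z- embryos thus lay below all 16 others, the direction that the labels give. They still held counts on Zfp57, and whether these fell in the deleted part of the gene was not examined. Its log2 change in M-Z- against M+Z+ was -1.02 in females (edgeR adjusted p = 0.000399) and -1.33 in males (edgeR adjusted p = 4.69e-05). As whole embryos were used, markers of neurons, heart, skeletal muscle, liver, kidney tubule and gut were all detected, and the trophoblast and decidua markers summed to at most 0.428 CPM. The library of male M-Z- replicate 2 had the lowest liver marker sum of the 23 embryos, 1681 CPM. Male M-Z- replicates 1 and 3 had 2079 and 4366 CPM. The mean squared count difference per gene, scaled by counting error, was 36.6 and 47.7 between replicate 2 and replicates 1 and 3. Between replicates 1 and 3 it was 17.7. Male M-Z- replicate 2 is left out in turn where it weighs on a result below, a setting chosen after seeing the data.

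Grb10 was among the most abundant transcripts and Ddc was not. In M+Z+ embryos, on the TPM scale (per M transcripts, which divides counts by exon length), the mean level was 539 for Grb10 and 13.9 for Ddc, a ratio of 38.8. These levels ranked 209 and 9413 of 26183 genes. Between 13414 and 30942 reads per embryo fell on Grb10 and between 190 and 699 on Ddc. Counting error alone is therefore at most 0.863% of a Grb10 value and 7.25% of a Ddc value. The spread between embryos was larger than this in most groups, as given below.

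Grb10 was lower in M-Z- embryos of both sexes, and the other genotypes overlapped. In female M+Z+ embryos its lowest, median and highest level were 1257, 1300 and 1418 CPM. The female M-Z+ embryos had 1352, 1188 and 1323 CPM, and the female M-Z- embryos had 1194, 868, 766 and 946 CPM. All 4 female M-Z- embryos lay below all 6 M+Z+ embryos, as was so for 2.05% of all tested genes. Only female M-Z- replicate 1, at 1194, reached into the M-Z+ range. In males, the M+Z+ embryos had 1285, 1277, 1187 and 1328 CPM, the M-Z+ embryos 1152, 1315 and 1228 CPM, and the M-Z- embryos 1066, 879 and 1110 CPM. The 3 male M-Z- embryos lay below the other 7 males, while male M-Z+ and M+Z+ embryos overlapped. Of all tested genes in males, 6.36% were wholly lower in M-Z- than in M+Z+ and 8.74% than in M-Z+. As group means, the level of Grb10 in females was 1310 ± 58.7 CPM in M+Z+ (SD, n = 6), 1288 ± 87.7 in M-Z+ (n = 3) and 943 ± 183 in M-Z- (n = 4). The male means were 1269 ± 59.4 (n = 4), 1232 ± 81.4 (n = 3) and 1018 ± 123 CPM (n = 3). The mean in M-Z- was thus 72% of that in M+Z+ in females and 80.2% in males.

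Ddc moved the other way and by more. Its level was higher in all M-Z- embryos of either sex and near that of M+Z+ in M-Z+ embryos. In female M+Z+ embryos its lowest, median and highest level were 11.7, 13.2 and 14 CPM. The female M-Z+ embryos had 12.8, 14.7 and 14.5 CPM, and the female M-Z- embryos had 24.2, 31.7, 26.3 and 34.6 CPM. Every female M-Z- embryo lay above every other female, and M-Z+ overlapped M+Z+. Of all tested genes in females, 2.24% were wholly higher in M-Z- than in M+Z+ and 4.36% than in M-Z+. In males, the M+Z+ embryos had 13, 14.3, 14.2 and 12.9 CPM, the M-Z+ embryos 16.3, 12.5 and 13 CPM, and the M-Z- embryos 29.8, 25.5 and 30.4 CPM. Again the M-Z- embryos lay wholly above the others, of which male M-Z+ replicate 1 was the highest. In males 4.41% of all tested genes were wholly higher in M-Z- than in M+Z+ and 4.24% than in M-Z+. Female means were 13.2 ± 0.786 CPM in M+Z+ (SD, n = 6), 14 ± 1.04 in M-Z+ (n = 3) and 29.2 ± 4.77 in M-Z- (n = 4). Male means were 13.6 ± 0.733 (n = 4), 13.9 ± 2.01 (n = 3) and 28.6 ± 2.68 CPM (n = 3). The fold of the means, M-Z- over M+Z+, was 2.22 in females and 2.10 in males. In such bulk samples, a change in the share of a cell type and a change in RNA per cell cannot be told apart.

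**Figure D2:**
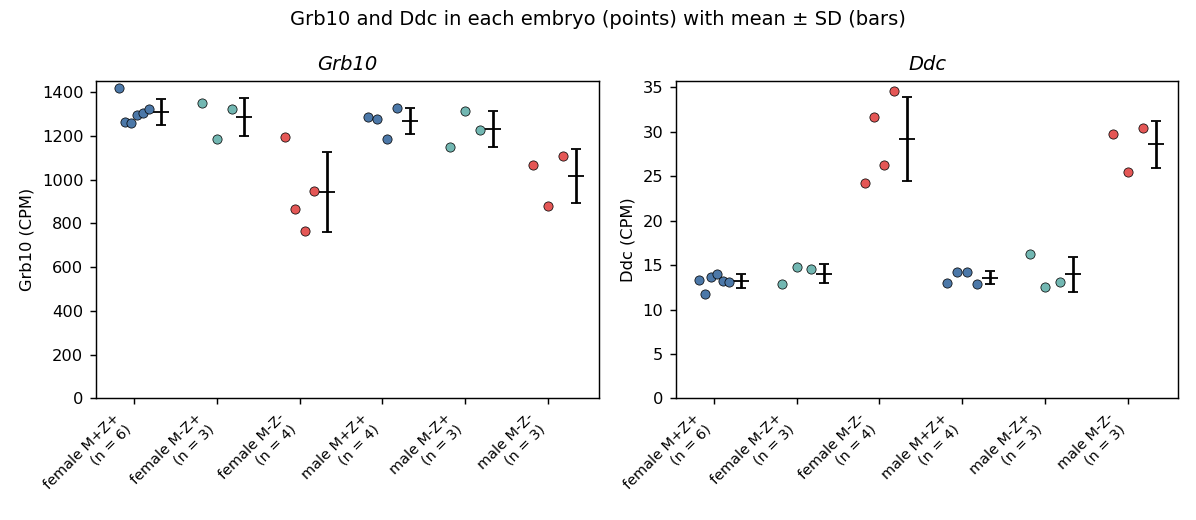
Level of Grb10 and Ddc in CPM (linear axes from 0) in each embryo, by sex and genotype, with points for embryos and bars for the mean ± SD. The 7 M-Z- embryos sit between 24.2 and 34.6 CPM for Ddc, above the other 16, and between 766 and 1194 CPM for Grb10, of which only female M-Z- replicate 1 overlaps the M-Z+ range of its sex.

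The opposite movement was also visible within libraries. For 100 counts on Grb10, M+Z+ embryos had 1.03 ± 0.0855 counts on Ddc (SD, n = 10), M-Z+ embryos 1.12 ± 0.179 (n = 6) and M-Z- embryos 3.03 ± 0.590 (n = 7). The lowest M-Z- embryo, at 2.03, was above the highest of the others, at 1.41. This ratio does not depend on the total count of a library. It is built from the same values as the levels above and adds no independent evidence.

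Genotypes were compared within a sex in 1 edgeR quasi-likelihood fit, with a call made where the p adjusted over all tested genes was under 0.05 and the log2 change was at least 0.5 in size. Because M-Z- was set against M+Z+ and against M-Z+, and M-Z+ against M+Z+, these comparisons share embryos and are given side by side. In female M-Z- against M+Z+ embryos, Ddc rose by 1.15 ± 0.0937 (log2, SE), with a 95% interval of 0.95 to 1.34 and an edgeR adjusted p of 6.3e-07. Grb10 differed by -0.48 ± 0.0896, with an interval of -0.67 to -0.29 and an edgeR adjusted p of 0.0115, which passed the adjusted p but fell short of the size minimum. So 1 of the 2 genes was called, where 0.563% of all tested genes were called. That share rests on 95 calls, which became 55 to 116 when 1 embryo was left out, the fewest without female M-Z- replicate 2. By the adjusted p alone both passed, as did 1.26% of all genes. By p, Ddc ranked 16 and Grb10 76 of 16871 genes. Leaving out 1 embryo moved Grb10 across either limit. Without female M-Z- replicate 1 its difference was -0.61 (edgeR adjusted p = 0.000126), past both limits, and without replicate 2 it was -0.44 (edgeR adjusted p = 0.0629).

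In male M-Z- against M+Z+ embryos, Ddc rose by 1.11 ± 0.104, with an interval of 0.88 to 1.33 and an edgeR adjusted p of 9.19e-05. Grb10 differed by -0.28 ± 0.0814, with an interval of -0.46 to -0.11 and an edgeR adjusted p of 0.142, which missed the threshold. Here 1 of the 2 genes was called, against 0.39% of all tested genes. That share rests on 65 calls, which became 41 to 899 when 1 embryo was left out, the most without male M-Z- replicate 3. The adjusted p alone was passed by the same gene and by 0.45% of all genes. The ranks by p were 14 for Ddc and 475 for Grb10, of 16664 genes. With DESeq2 the male difference of Grb10 was -0.28 with an adjusted p of 0.0154. In edgeR without male M-Z- replicate 2, it was -0.22 (adjusted p = 0.266), and without replicate 3 it was -0.33 (adjusted p = 0.0361). Ddc stayed called in each of these, with 1.15 and 1.08 in the 2 edgeR fits.

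Against M-Z+ embryos, whose mothers were also Zfp57-/-, the differences were of like size. Which embryos shared a mother or litter is not given. Ddc rose by 1.07 ± 0.115 in females (edgeR adjusted p = 5.23e-05) and by 1.09 ± 0.113 in males (edgeR adjusted p = 0.000404). Grb10 differed by -0.44 ± 0.104 in females (edgeR adjusted p = 0.121) and -0.22 ± 0.0866 in males (edgeR adjusted p = 0.496). In each sex 1 of the 2 genes was called, against 0.196% of all tested genes in females and 0.15% in males. The male share rests on 25 calls, which became 17 to 376 when 1 embryo was left out, the most without male M-Z- replicate 3. The difference of Grb10 in females became -0.57 (edgeR adjusted p = 0.00198) without female M-Z- replicate 1.

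Absence of ZFP57 from the oocyte alone left both genes near their M+Z+ levels. M-Z+ against M+Z+ differed for Grb10 by -0.04 in females, with a 95% interval of -0.24 to 0.17, and by -0.06 in males, with an interval of -0.24 to 0.11. For Ddc the difference was 0.08 in females, with an interval of -0.15 to 0.31, and 0.02 in males, with an interval of -0.22 to 0.25. With edgeR, 0 of the 2 genes were called in either sex, also 0 at an unadjusted p under 0.05 and 0 by DESeq2. The share called over all tested genes was 0.0593% for females and 0.048% for males, from 10 and 8 calls that became 5 to 12 and 0 to 54 when 1 embryo was left out, the most without male M+Z+ replicate 4. The intervals leave room for differences of up to about 1.24-fold in Ddc and do not reach the size of the M-Z- difference in it. For Grb10 they reach -0.24 in both sexes. In males this overlaps the interval of M-Z- against M+Z+, -0.46 to -0.11, and in females it stops short of -0.67 to -0.29.

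No difference between the sexes was detected in either gene. In M+Z+ embryos Grb10 differed between females and males by 0.05 (95% interval -0.13 to 0.22) and Ddc by -0.05 (-0.24 to 0.15). In edgeR 0 of the 2 genes were called at a minimum of 0.3, with 0 at an unadjusted p under 0.05 and 0 by DESeq2, where 0.0817% of all genes were called. The effect of M-Z- was -0.48 for Grb10 in females and -0.28 in males. The test of that difference (male minus female) gave 0.18, with an interval of -0.08 to 0.45 and an edgeR adjusted p of 0.824. Single embryos weighed on this value, which was 0.32 without female M-Z- replicate 1 (edgeR adjusted p = 0.938, unadjusted 0.0056) and 0.10 without female M-Z- replicate 3 (edgeR adjusted p = 0.905). For Ddc it gave -0.05, with an interval of -0.34 to 0.25. In M-Z+ the differences between the sexes were -0.02 (-0.30 to 0.25) for Grb10 and -0.06 (-0.38 to 0.26) for Ddc. Neither gene was called in either interaction, nor was 1 of the 17139 tested genes, a share of 0.0% in both. At an unadjusted p under 0.05 there were 1107 genes in the M-Z- interaction and 625 in that of M-Z+, with neither Grb10 nor Ddc among them, and DESeq2 called 0 in each. The interval of the difference for Grb10 includes 0, so whether Grb10 responded less in males cannot be told at these group sizes.

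With both sexes in 1 fit and sex as a term, a setting chosen after seeing the data, Grb10 differed in M-Z- against M+Z+ by -0.40 ± 0.0654, with an interval of -0.53 to -0.26 and an edgeR adjusted p of 0.000377. Its size remained under 0.5. Ddc rose by 1.13 ± 0.0674, with an interval of 0.99 to 1.27 and an edgeR adjusted p of 2.97e-12. Without male M-Z- replicate 2 the same fit gave -0.38 and 1.15.

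**Figure D3:**
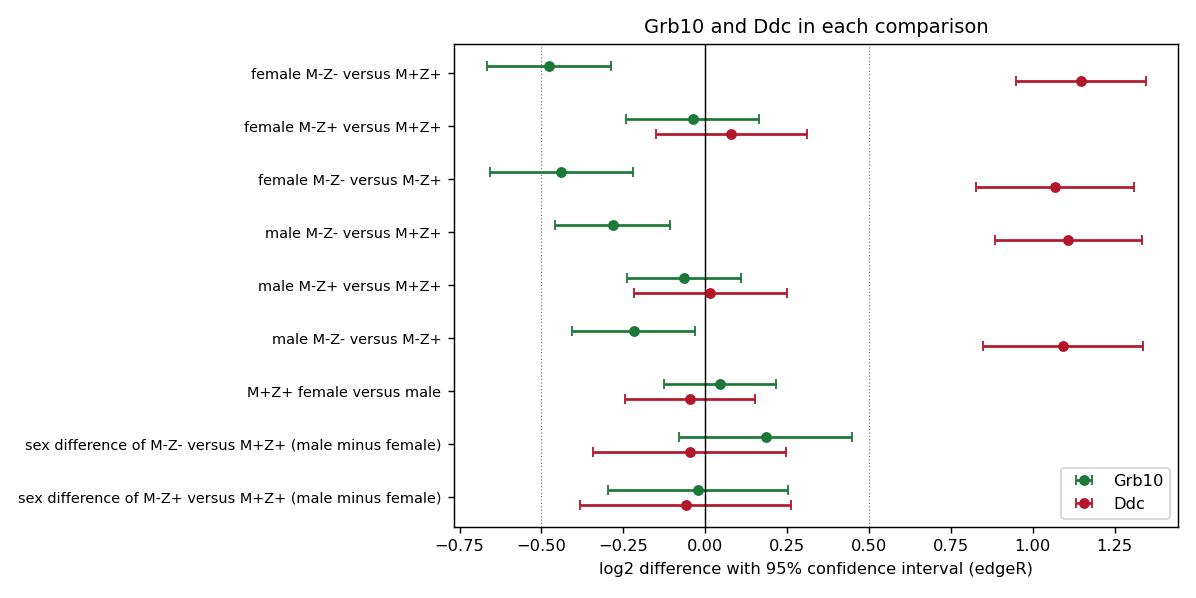
Fitted log2 difference of Grb10 and Ddc (x axis, edgeR, with 95% confidence interval) in each comparison of genotypes or sexes (rows). Ddc lies near 1.1 in the 4 comparisons of M-Z- with another genotype, Grb10 lies between -0.48 and -0.22 in them, and all other intervals include 0.

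Separation between groups was also counted without a model. Ddc was wholly higher in M-Z- than in M+Z+ embryos in both sexes, which was the case for 2.24% of all tested genes in females and 4.41% in males. It was wholly higher in M-Z- than in M-Z+, as were 4.36% of genes in females and 4.24% in males. Grb10 was wholly lower in M-Z- than in M+Z+, as were 2.05% of genes in females and 6.36% in males. Against M-Z+ it was wholly lower in males, as were 8.74% of genes, and overlapped in females. Neither gene separated M-Z+ from M+Z+ in either sex.

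Within a genotype, a high Grb10 did not go with a low Ddc in a way that these embryos could show. On the scale of log2(CPM + 1), Pearson's r between the genes was -0.223 in the 10 M+Z+ embryos (permutation p = 0.519), with Spearman's rho at -0.345 (permutation p = 0.334). In the 6 M-Z+ embryos r was -0.719 (exact permutation p = 0.117) and rho was -0.714 (exact permutation p = 0.136). In the 7 M-Z- embryos r was -0.0544 (exact permutation p = 0.908) and rho was -0.214 (exact permutation p = 0.662). Over these 6 two-sided tests the Benjamini-Hochberg adjusted values were 0.408 to 0.908. Leaving out the 2 embryos farthest from the median of Grb10 gave r of 0.000658 over 8 M+Z+, 0.0816 over 4 M-Z+ and 0.158 over 5 M-Z- embryos. Leaving these out narrows the range of Grb10, so the lower size of r in M-Z+ was not read further. The genotypes form separate clusters, so the relation of the pair was not tested over all embryos together.

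Which parental copy the reads came from could not be read for this pair. The allele tables held 2.46 to 3.94 M reads per embryo in 19 embryos, and the other 4, all female M+Z+, had headers that name no single embryo. Grb10 had 0 allele-assigned reads in all 19 embryos, beside 393282 total counts. A count of 0 allows up to 3 counts, at most 0.0224% of the total counts of Grb10 in any embryo, and this covers counting error only. Ddc had 8 allele-assigned reads beside 6515 total counts, of which 7 were paternal (DBA) and 1 maternal (129). Female M-Z+ replicate 1 had 3 paternal reads, and female M-Z- replicates 1 and 2, male M-Z+ replicate 3 and male M-Z- replicate 2 had 1 each. The maternal read was in male M-Z- replicate 3. No embryo passed the minimum of more than 10 reads in either gene, so no paternal share is given and no test of alleles was run. Lack of allele reads was common among well covered genes. It held for 57 of the 173 genes with a mean count of at least 10000, and for 4293 (34.1%) of the 12578 genes with at least 100. Whether this reflects few strain variants in these transcripts was not tested.

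No neighbour of the pair was called. Within 500 kb of Grb10 or Ddc the tables held 9 other genes, of which 4 had a mean of at least 1 CPM. In M-Z- against M+Z+ embryos 0 of the 4 were called by edgeR or DESeq2 in either sex, and at an unadjusted p under 0.05 there was 1, Ikzf1 in females. Over all tested genes 15.5% in females and 17% in males passed that level. Cobl, an actin nucleator on the far side of Grb10, differed by -0.02 in both sexes. Fignl1, an AAA ATPase of DNA repair 5.14 kb past Ddc, differed by -0.05 in females (edgeR adjusted p = 0.801) and -0.30 in males (edgeR adjusted p = 0.41). The next gene, Ikzf1, encodes the lymphoid transcription factor Ikaros and lies 41.2 kb away. It differed by -0.35 in females (edgeR adjusted p = 0.245) and -0.62 in males (edgeR adjusted p = 0.328). Its 3 male M-Z- embryos had 29.5, 9.66 and 45.8 CPM, and replicate 2, the lowest, was also the lowest of all embryos in Fignl1 at 23.7 CPM. Without it the male differences were -0.23 for Ikzf1 and -0.05 for Fignl1. Zpbp, a sperm acrosome gene, differed by -0.09 and 0.15, and in males by -0.11 without that embryo. The other 5 genes were under 1 CPM on average. One of them, 1700042O10Rik, lies within Ddc on the opposite strand and had 0 to 0.336 CPM. Whether any of its reads were counted on Ddc was not tested.

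**Figure D4:**
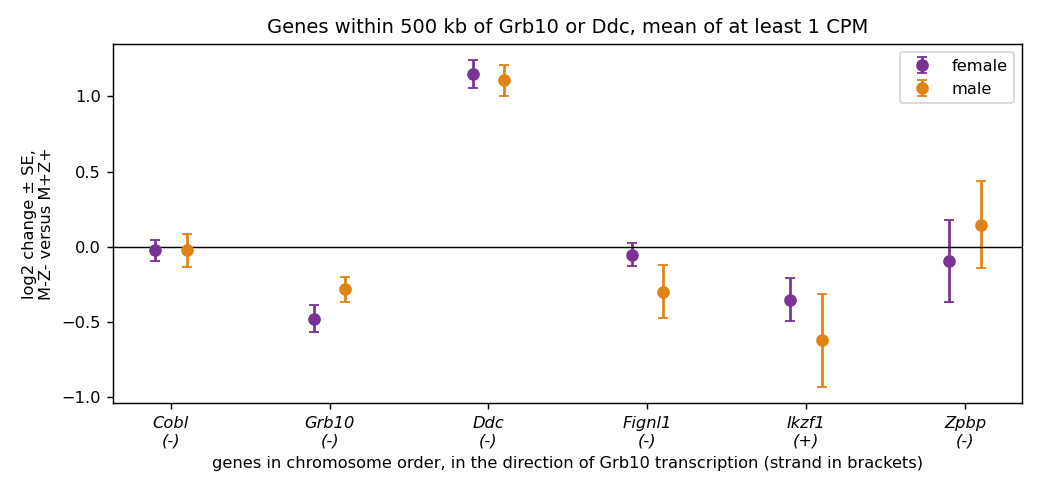
Fitted log2 change ± SE of M-Z- against M+Z+ (edgeR) for the genes within 500 kb of Grb10 or Ddc at 1 CPM or more on average, in chromosome order, for females and males. Ddc stands above 1 in both sexes, while the neighbours on either side lie between -0.62 and 0.15 and none was called.

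Among the partners of GRB10 in insulin and IGF signalling a single call was made. Of the 18 listed genes, all tested, 0 rose and 1 fell in female M-Z- embryos, beside a called share of 0.563% over all genes. The median log2 change of the list was -0.01, against -0.00358 over all genes. The gene that fell was Irs4, a docking protein of the insulin receptor, from 5.03 ± 0.330 CPM (SD, n = 6) to 3.39 ± 0.469 (n = 4), a log2 change of -0.58 (edgeR adjusted p = 0.0336). In males 0 of the 18 were called by edgeR, 4 at an unadjusted p under 0.05 (17% of all genes) and 0 by DESeq2, and the median was 0.03. In females 2 were under that p (15.5% of all genes). Irs4 differed in males by 0.05. Among other members, Gigyf1, whose protein binds GRB10, differed by 0.14 in females and 0.41 in males. Grb14, the closest relative of Grb10 in the list, differed by -0.19 and -0.04. The receptors themselves differed by -0.02 and 0.04 (Insr) and by -0.16 and 0.05 (Igf1r). None of these 4 was called in either sex.

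None of the genes that act beside DDC in monoamine synthesis, storage, transport and breakdown was called. Of 21 listed genes 20 were tested, and 0 were called in either sex by edgeR and by DESeq2. At an unadjusted p under 0.05 there were 2 in females, all lower in M-Z- (15.5% of all genes). In males there were 8 (17%), of which 3 were higher and 5 lower. The median log2 change was -0.03 in females and -0.12 in males, beside 0.00167 over all genes in males. Without male M-Z- replicate 2, which had the lowest sum of these genes, the male median was 0.03. Then 2 genes, 1 higher and 1 lower, were at an unadjusted p under 0.05 (11.9% of all genes). Th, the tyrosine hydroxylase that supplies L-DOPA to DDC, differed by 0.06 in females (edgeR adjusted p = 0.87) and 0.57 in males (edgeR adjusted p = 0.208). Dbh, which turns dopamine into noradrenaline, differed by 0.06 and 0.77 (edgeR adjusted p = 0.128 in males). The noradrenaline transporter Slc6a2 differed by 0.09 and -0.65. The vesicular transporter Slc18a2 differed by -0.00166 and 0.47, and in males by 0.24 without male M-Z- replicate 2. Maob, a monoamine oxidase, differed by -0.34 and -0.59. Tph1 and Tph2, the tryptophan hydroxylases, were both under 1 CPM on average.

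Markers of the cell types in which either gene could be read were taken as sums in each embryo. The cardiomyocyte list had 9 genes, all tested. Myl2, a ventricular myosin light chain, rose by 0.58 in female M-Z- embryos (edgeR adjusted p = 0.00156) and by 0.66 in males (edgeR adjusted p = 0.0365), and the other 8 were not called. The share called over all tested genes was 0.563% in females and 0.39% in males. At an unadjusted p under 0.05 there were 4 markers in females (15.5% of all genes) and 5 in males (17%), all higher in M-Z-. The median of the list was 0.17 in females and 0.42 in males. The summed level was 381 to 547 CPM in female M+Z+, 437 to 561 in female M-Z-, 435 to 532 in male M+Z+ and 467 to 640 in male M-Z- embryos, and the ranges overlapped in both sexes. In females 3 of the 9, Nppa, Actn2 and Ryr2, had values below 0. Without male M-Z- replicate 2, which had the highest cardiomyocyte sum, the male median was 0.24, Myl2 was at 0.56 (edgeR adjusted p = 0.0848) and 0 of the 9 were called, with 2 at an unadjusted p under 0.05 (11.9% of all genes). The part of heart tissue in the Ddc result was not tested.

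For sympathoadrenal and monoaminergic cells, 0 of 12 markers were called by edgeR or DESeq2 in either sex. At an unadjusted p under 0.05 there was 1 in females, lower in M-Z- (15.5% of all genes). In males there were 4, all higher (17%). The medians were 0.02 and 0.28. Without male M-Z- replicate 2 the male median was 0.29, with 2 markers higher at that p (11.9% of all genes). The sum of the 12 markers was 83.2 to 94.1 CPM in female M+Z+ and 78.3 to 95.2 in female M-Z-, and 78.3 to 86.3 against 85.4 to 97.9 in males. The part of these cells in the Ddc result was not tested. The 7 neuron markers had medians of -0.18 and -0.02, with 0 called by edgeR or DESeq2, and 5, all lower, in females (15.5% of all genes) and 0 in males (17%) at an unadjusted p under 0.05. Without male M-Z- replicate 2 the male median was -0.12, with 3 markers, all lower, at that p (11.9% of all genes). The sums of all 7 were 1703 to 2058 CPM in female M+Z+ and 1542 to 1683 in female M-Z-, and 1627 to 1791 against 1504 to 1672 in males. The female M-Z- embryos thus lay below the M+Z+ females in the neuron sum as they did in Grb10. Male M-Z- replicates 1 and 3, at 1562 and 1504 CPM, also lay below the M+Z+ males in that sum, and replicate 2, at 1672, did not. Replicate 2 had the lowest Grb10 of the male M-Z- embryos, at 879 CPM. The part of neuron RNA in the Grb10 result was not tested.

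Of the lists, liver had the medians farthest from 0, although none of its genes was called. All 6 markers were lower in M-Z- at an unadjusted p under 0.05 in both sexes, where 15.5% of all genes in females and 17% in males passed in either direction, with medians of -0.61 and -0.80, and 0 were called by edgeR or DESeq2. The sum was 3245 to 6980 CPM in female M+Z+ and 2439 to 3996 in female M-Z-. In males it was 4555 to 6606 against 2079, 1681 and 4366 in M-Z- replicates 1 to 3, with Grb10 at 1066, 879 and 1110 CPM. The 4 female M-Z- embryos had 3124, 2506, 2439 and 3996, with Grb10 at 1194, 868, 766 and 946 CPM. The liver sum and Grb10 had the same order in the 3 male M-Z- embryos and in 3 of the 4 females, all but replicate 4. This order was not particular to liver. In the male M-Z- embryos the monoamine, skeletal muscle and gut sums had it too. The cardiomyocyte, neuron, sympathoadrenal and kidney sums had the reverse order there. In female M-Z+ against M+Z+ the liver median was -0.42, with 0 of the 6 markers at an unadjusted p under 0.05, and Grb10 differed by -0.04. Without male M-Z- replicate 2 the male median was -0.56, with 4 of 6 at an unadjusted p under 0.05. The part of liver RNA in the Grb10 result was not tested. In skeletal muscle (6 genes), kidney tubule (3 of 4 tested) and gut epithelium (4 genes), 0 markers were called by edgeR or DESeq2 in either sex. At an unadjusted p under 0.05 there was 1 muscle marker, in females, and 0 others. No trophoblast or decidua marker was abundant enough to test, and 1 of the 5 had 0 counts in every embryo.

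**Figure D5:**
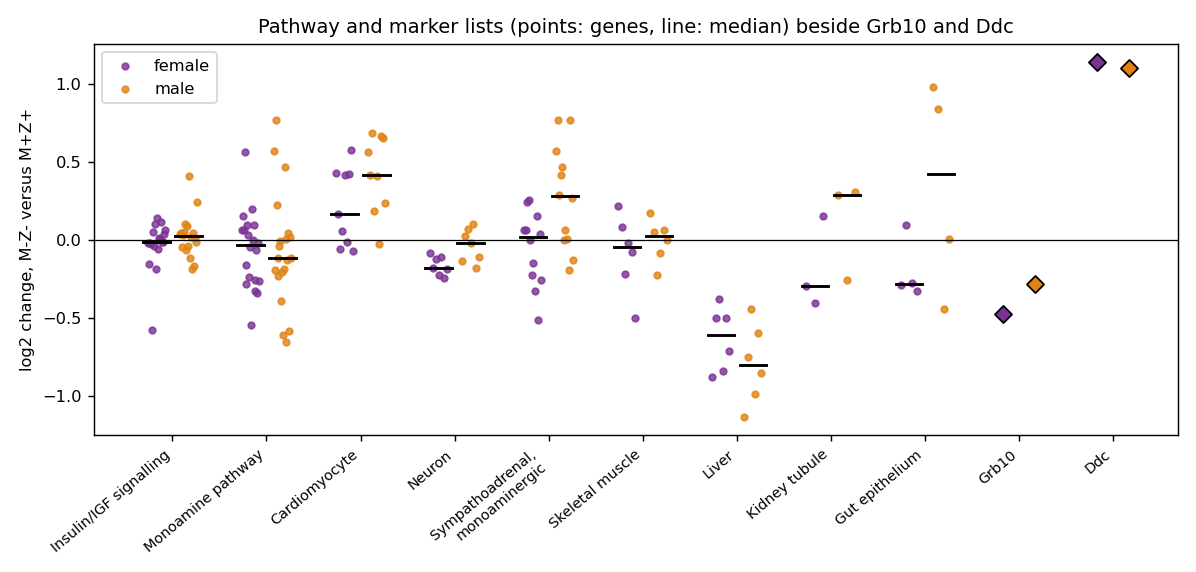
Fitted log2 change of M-Z- against M+Z+ (edgeR) for each tested gene (points) of the pathway and marker lists, with the list median (line), beside Grb10 and Ddc, for females and males. The list medians lie between -0.80 (liver, males) and 0.42, and that of the monoamine genes is -0.03 in females and -0.12 in males, below the value near 1.1 of Ddc.

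Lastly, the 15502 genes that averaged 1 CPM or more were ranked by how alike their pattern over the 23 embryos was, by Pearson's r on log2(CPM + 1). This r is pooled over the genotypes, which form separate clusters, and all genes share the same libraries, so it is a description. Most like Grb10 were Klhdc10 (r = 0.897), Dio3 (0.856), Rb1 (0.844), Nbr1 (0.843) and Zim1 (0.841). Klhdc10, a kelch-domain gene, went from 234 ± 7.46 CPM (SD, n = 10) in M+Z+ and 234 ± 10.7 (n = 6) in M-Z+ to 173 ± 19.1 (n = 7) in M-Z-. Dio3, which inactivates thyroid hormone, and Zim1, an imprinted zinc finger gene, were lower in M-Z- by more, at 1.85 against 5.93 CPM and 7.50 against 108 CPM of M+Z+. The retinoblastoma gene Rb1 went from 93.8 to 75.5 CPM, and Nbr1, an autophagy receptor also on chromosome 11 but far from the pair, from 178 to 157.

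Most like Ddc were Inpp5f (r = 0.956), AF357359 (0.955), Rian (0.954), Mirg (0.954) and Usp29 (0.943). Rian and Mirg are noncoding RNAs of the imprinted domain on chromosome 12, where AF357359 also lies. Inpp5f, an inositol phosphatase gene, and Usp29, a ubiquitin peptidase gene, are on chromosome 7. Inpp5f had a mean of 94.2 CPM in M+Z+, 95.9 in M-Z+ and 163 in M-Z-, and Rian had 830, 880 and 1531 CPM in that order. Ddc stood at 13.3, 14 and 28.9 CPM. Inpp5f rose by 0.79 in female and 0.82 in male M-Z- embryos on the log2 scale, and Mirg by 1.27 and 1.16, on either side of the values of Ddc.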

How the data were processed

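RNA of 23 whole E13.5 embryos was sequenced from libraries made with a TruSeq RNA kit, 1 per embryo. The deposited gene tables held raw counts. To obtain them, the authors trimmed the reads with Trim Galore, aligned them to mm9 with STAR 2.7.8a (per the submitters' processing notes) and counted them with featureCounts (Subread 2.0.1), set to be strand-specific, with a read counted for each gene it overlapped. The deposited allelic tables held raw counts for each parental copy of a gene, after the authors had called strain variants with GATK and split the reads with SNPsplit. Exon length, in bases, was deposited beside the counts and used for TPM.

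Columns headed WT were read as M+Z+. The 8 allelic columns of 4 female M+Z+ embryos were not used, because their headers repeat.

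Genes were tested with edgeR 4.0.16 (glmQLFit, glmQLFTest, TMM, filterByExpr, limma 3.58.1) in R 4.3.3, with the 3 genotypes of a sex in 1 fit, and with all 23 embryos for comparisons between sexes. Adjusted p-values are Benjamini-Hochberg over all tested genes, at 0.05 with a log2 minimum of 0.5 between genotypes, 0.3 between sexes and none for interactions. DESeq2 1.42.0, other scaling, filters and embryo sets, the replicate number as a block and leaving out each embryo were alternatives. The edgeR step was tested on simulated data. Permutation tests used scipy 1.17.1. No replicate pair held identical counts. Embryos are taken as separate animals.

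The genes Grb10 and Ddc, the gene and marker lists and the tests were chosen with earlier results of these data known. Named genes were the pair, Zfp57, neighbours within 500 kb with a mean of at least 1 CPM, up to 4 list members with the largest change, and the 5 genes most like each of the pair. Some of these list members are not reported here. Insr, Igf1r, Th, Slc18a2, Tph1, Tph2 and Myl2 were added after their values were seen.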

Additional observations from a re-analysis of the deposited data

How the results depend on the processing

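For the pair, 18 results were recomputed under 354 alternatives. A call here needs both the adjusted p and the size minimum. Direction, where called, and call held in 352, and none was weaker or reversed. In the other 2, without female M-Z- replicate 1, Grb10 passed the threshold in females at -0.61 (edgeR adjusted p = 0.000126) against M+Z+ and -0.57 (edgeR adjusted p = 0.00198) against M-Z+. By the adjusted p alone, Grb10 in M-Z- against M+Z+ passed in 19 of 20 alternatives in females and 3 of 17 in males, and against M-Z+ in 3 of 20 in females and 1 of 17 in males. Leaving out each embryo in turn gave -0.61 to -0.39 for Grb10 in female M-Z- against M+Z+, -0.57 to -0.35 against M-Z+ and -0.33 to -0.22 in males against M+Z+. For Ddc against M+Z+ it gave 1.05 to 1.23 in females and 1.08 to 1.15 in males.

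With the replicate block, Grb10 in M-Z- against M+Z+ was -0.50 (edgeR adjusted p = 0.0383) in females and -0.27 (edgeR adjusted p = 0.166) in males, and Ddc was 1.12 and 1.08, so no call of the pair changed. Same-numbered embryos did not deviate together (median r of -0.111 over 10 female and -0.0518 over 9 male pairs, 2 over 0.1 in each), so the numbers do not pair the embryos. The block moved the genes called in M-Z- against M+Z+ from 95 to 52 in females and from 65 to 128 in males, and in M-Z+ from 10 to 4 and from 8 to 41.

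Counts over all genes were less stable. In female M-Z- against M+Z+, DESeq2 called 148 genes in place of 95. In males it called 184 in place of 65, and no filter gave 99, the compared groups alone 40 and all 23 embryos 275. In males DESeq2 also called 13 in M-Z+ in place of 8, and 57 in M-Z- against M-Z+ in place of 25, which became 16 with the compared groups alone and 48 with all embryos. In female M-Z+ against M+Z+ the compared groups alone gave 3 in place of 10. With both sexes in 1 fit, chosen after seeing the data, 365, 13 and 94 genes were called. Leaving out each embryo gave 55 to 116 and 5 to 12 in the female comparisons with M+Z+, 41 to 899 and 0 to 54 in the male ones and 17 to 376 in male M-Z- against M-Z+, the highest of M-Z- without male M-Z- replicate 3. The cause was not tested.

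Counting error is larger for Ddc than for Grb10. The alternatives for paternal share and allele reads gave no value, since no embryo had more than 10 allele-assigned reads on either gene. Where an arm was left with 2 embryos, the spread was pooled over the fit.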
